A study of Mus musculus with 5 samples.

Results

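Genes of DNA replication and mitosis were followed in RNA libraries labelled as CD4+ T cells of the spleen and of MC38 tumors. The markers of the tumor libraries go against that label in part, with T cell genes lower and macrophage genes far higher than in spleen (values below), so spleen and tumor name the libraries by their labels. The set is a list of 44 named genes, chosen by symbol, and all 44 were found among the 19726 symbols in the deposited tables. It divides into 22 replication genes, with the S phase cyclin gene Ccne1 counted among them, and 22 mitosis genes. The mice were wild-type C57/Bl6j animals aged 7 weeks, and MC38 is a transplantable colon carcinoma line of that background. Spleen was represented by 3 libraries (replicates 1, 2 and 3) and tumor by 2 (replicates 2 and 3), each from RNA of 300000 cells. No other treatment or allele is given. The labels do not say which replicates came from separate mice or whether mice were pooled. Each test therefore rests on the spread between these libraries, which may be technical. That spread was pooled largely over all genes and is not mainly the spread of the gene itself.

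Proliferating cells copy their DNA once per division and then separate the copies. Before S phase, Cdc6 and Cdt1 load a ring of Mcm2 to Mcm7 proteins onto replication origins. Cdc45 and the GINS complex turn each ring into an active helicase, and polymerases, the sliding clamp Pcna and the flap and nick enzymes Fen1 and Lig1 follow it. In mitosis Cdk1 with its cyclins, the Aurora and Polo kinases, the kinetochore and the spindle divide the copies, and the anaphase-promoting complex ends the phase. Transcription of the replication genes is classically under E2F factors. That of many mitosis genes runs through the cell cycle genes homology region, bound by the DREAM and MuvB-Myb-FoxM1 complexes, together with NF-Y boxes. Naive T cells in the spleen mostly rest, and T cells that have met antigen divide.

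The promoters of both groups carry these elements to different extents, and 3 of each group are shown, for genes whose values are described below. RefSeq promoters (GRCm38.p6, from 250 bases before to 50 bases after each start) were matched for 38 of the 44 genes, some with more than 1 start. Letters were searched on both strands: TTTGAA for the homology region, CCAAT for the NF-Y box, and TTCCCGC, TTTGGCGC and TTTCGCGC for E2F, of which the last 2 can overlap each other. TTTGAA occurred in 15 of 20 mitosis promoters (75%) and in 3 of 23 replication promoters (13%), against 17.9% of all 32851 promoters of the same length. CCAAT occurred in 18 of the 20 and 12 of the 23, against 37.4% of all. At least 1 of the E2F words occurred in 1 of the 20 mitosis promoters and 11 of the 23 replication promoters, against 5.33% of all. These are matches of letters, not shown binding sites. The 160 bases before the RefSeq start follow, in the sense of the gene, with matches in capitals (ATTGG is CCAAT read on the opposite strand).
Cdk1, chr10:69352913-69353072, minus strand: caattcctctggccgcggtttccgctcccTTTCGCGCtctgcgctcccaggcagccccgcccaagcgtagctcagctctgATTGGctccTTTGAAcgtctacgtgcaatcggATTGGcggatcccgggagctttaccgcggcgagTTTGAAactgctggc
Cdc20, chr4:118437344-118437503, minus strand: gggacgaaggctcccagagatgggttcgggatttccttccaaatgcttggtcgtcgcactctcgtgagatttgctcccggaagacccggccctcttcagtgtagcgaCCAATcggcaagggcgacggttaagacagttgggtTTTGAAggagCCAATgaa
Mki67, chr7:135716380-135716539, minus strand: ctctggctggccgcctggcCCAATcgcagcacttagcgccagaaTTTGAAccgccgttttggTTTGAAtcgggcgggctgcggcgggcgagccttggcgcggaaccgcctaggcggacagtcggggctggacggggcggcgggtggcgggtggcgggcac
Mcm5, chr8:75109349-75109508, plus strand: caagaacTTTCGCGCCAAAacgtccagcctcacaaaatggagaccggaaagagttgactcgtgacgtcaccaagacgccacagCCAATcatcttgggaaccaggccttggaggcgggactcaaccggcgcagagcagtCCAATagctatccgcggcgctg
Mcm6, chr1:128359706-128359865, minus strand: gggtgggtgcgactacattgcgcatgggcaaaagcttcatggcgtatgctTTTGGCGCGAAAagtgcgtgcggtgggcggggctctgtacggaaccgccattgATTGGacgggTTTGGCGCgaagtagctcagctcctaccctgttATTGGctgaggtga
Pcna, chr2:132253181-132253340, minus strand: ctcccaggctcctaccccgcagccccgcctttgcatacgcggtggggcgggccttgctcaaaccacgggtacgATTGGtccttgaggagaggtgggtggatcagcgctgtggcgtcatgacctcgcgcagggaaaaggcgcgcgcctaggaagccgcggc
The 3 mitosis promoters hold TTTGAA within the printed stretch, at 15 and 71 bases before the start in Cdk1, 18 in Cdc20 and 98 and 116 in Mki67. The Mcm5 and Mcm6 stretches hold overlapping E2F words, and the Pcna stretch holds a CCAAT and none of the other words. GENCODE, used for gene positions below, starts some genes elsewhere. By its bounds the genes reach into the Cdk1, Cdc20 and Pcna stretches, and Pcna covers most of its own. The Cdk1 stretch also holds an E2F word, the 1 such match among the mitosis promoters.

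Levels are given as TPM, a share of all transcripts in a library that is corrected for transcript length. Because listed genes made up 26.9% to 36.0% of the full TPM total in spleen and 56.9% to 59.6% in tumor, the scale on which the tissues are compared matters for every gene below. The mitochondrial leucyl-tRNA synthetase gene Lars2 alone held 9.81% to 25.2% of the listed sum. The tissue labels were checked against cell markers. All 15 T cell identity markers were lower in both tumor libraries than in any spleen library (summed 1085 to 1430 TPM in spleen, 269 to 342 TPM in tumor), and none was at 0. Cd4 itself ranged from 97.7 to 131 TPM over the spleen libraries and was at 26.8 and 27.2 TPM in those from tumor. All 16 macrophage and monocyte markers were higher in tumor (32.4 to 44.5 against 7333 to 7697 TPM), and the marker with the highest mean over the 5 libraries was Ly6c2. That marker is given in brackets for the other lists. Of 10 dendritic cell markers 5 were higher and 2 lower in tumor (62.6 to 75.0 against 436 to 479 TPM; Bst2), with Ccr7 above Bst2 in every spleen library and lower in tumor, and of 10 neutrophil markers 3 were higher and 1 lower (7.40 to 8.91 against 75.2 to 77.1 TPM; Csf3r), with Mpo above Csf3r in every spleen library and Camp at 0 in both tumor libraries. Summed levels were 3.89 to 4.99 and 3.21 to 3.53 TPM for 12 epithelial markers (Vil1; 0 higher and 5 lower), 24.6 to 29.2 and 21.6 to 34.9 TPM for 12 erythroid markers (Ermap; 4 higher and 4 lower), and 32.9 to 36.2 and 25.4 to 30.7 TPM for 10 B cell markers (Cd22; 1 higher and 4 lower). They were 39.7 to 54.3 and 32.9 to 41.7 TPM for 10 CD8 T cell and NK cell markers (Nkg7, the 1 that was higher; 4 were lower) and 45.7 to 55.1 and 135 to 200 TPM for 7 plasma cell markers (Xbp1; 3 higher and 3 lower, Jchain among the lower). They were 111 to 125 and 40.9 to 53.7 TPM for 10 fibroblast markers (Thy1, which T cells also express and which was lower; 3 others were higher). The 10 endothelial markers summed to 68.2 to 75.9 and 97.9 to 106 TPM (Pecam1; 3 higher and 3 lower). Pecam1 itself overlapped between tissues, while Kdr stood at 0.843, 0.453 and 0.654 TPM in spleen and at 32.7 and 33.1 TPM in tumor. The part of these other cells in the changes below was not tested. In such bulk samples fewer cells of a type and less RNA per cell cannot be told apart.

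Most mitosis genes and 11 of the 22 replication genes rose in tumor on the deposited scale. In limma's test on log2(TPM + 1) at an adjusted p below 0.05, 19 of the 21 tested mitosis genes rose and none fell, and of the 22 replication genes 11 rose, 2 fell and 9 were not called. Among all 12979 tested genes 40.9% rose and 18.1% fell. The median log2 change was 0.91 over the mitosis genes and 0.55 over the replication genes, against 0.23 over all tested genes. Plk1, with a mean of 0.99985 TPM, was the 1 member below the filter of a mean of 1 TPM, and no tested member had a spleen mean below 1 TPM. With no filter all 44 were tested, and 16 mitosis genes rose and 0 fell at that wider adjustment, the replication counts being 11 and 2, against 26.1% and 10% of all 19726 genes. Every tumor library stood above every spleen library for 21 of the 22 mitosis genes and 14 of the 22 replication genes, which compares with 46.6% of all tested genes. Every tumor library stood below for 3 replication genes and no mitosis gene, against 23.8%.

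**Figure D1:**
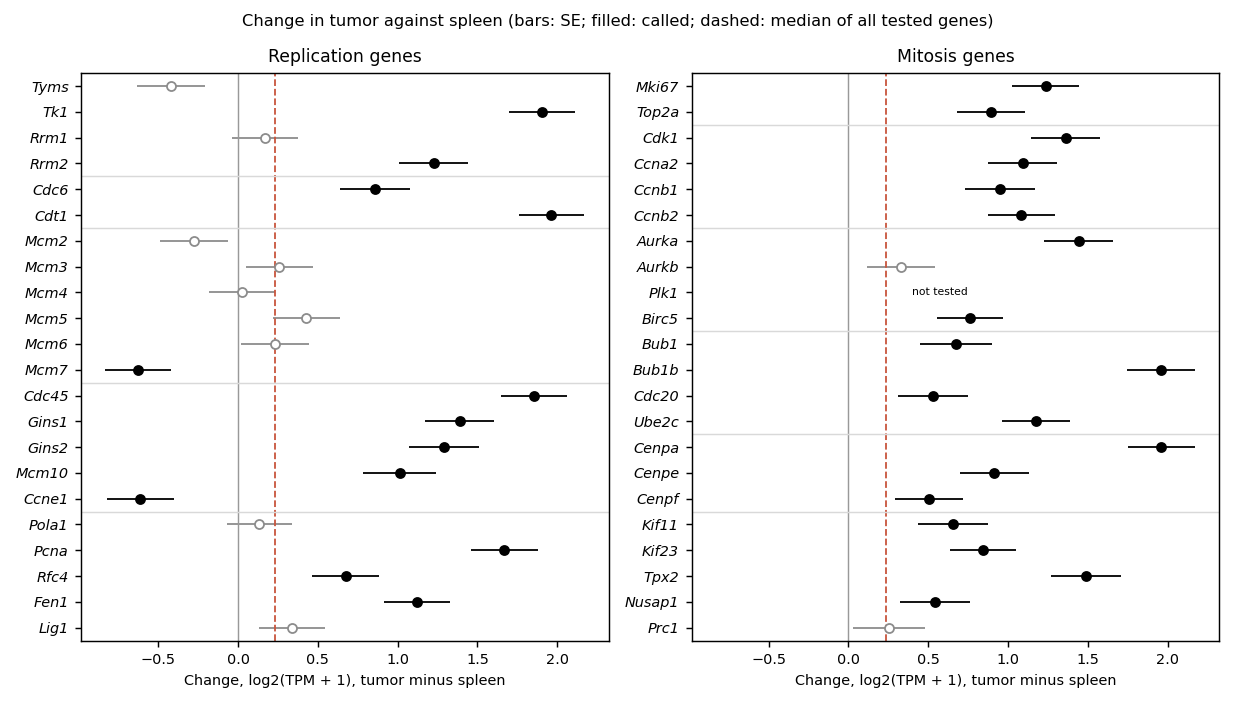
Change of each gene on the log2(TPM + 1) scale, tumor minus spleen, for the 22 replication and 22 mitosis genes in order of role (grey lines part the roles). Points are limma estimates with their SE from 3 spleen and 2 tumor libraries, filled where the adjusted p is below 0.05, and the dashed line is the median of all tested genes at 0.23. The helicase ring genes Mcm2 to Mcm7 lie between -0.63 and 0.43, while the genes above and below them in the left panel reach 1.96.

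Values per library follow in the order spleen replicates 1, 2 and 3, then tumor replicates 2 and 3. Among the nucleotide supply genes, Tk1 and Rrm2 rose while Tyms and Rrm1 were not called. This was on the deposited scale, where 40.9% of all tested genes rose and 18.1% fell. With equal totals Tk1 still rose, Rrm2 was not called, and Tyms and Rrm1 fell, where 51.3% of all fell. Tk1 (chromosome 11, 117815526 to 117826092, GRCm38), the thymidine kinase that salvages thymidine for S phase, stood at 6.33, 6.72 and 5.92 TPM in spleen and at 23.9 and 29.2 TPM in tumor; the log2 change was 1.91, with an SE of 0.21 and an adjusted p of 2.8e-11 by limma. Both tumor libraries held more than 3 times the level of any spleen library. Rrm2, the small subunit of ribonucleotide reductase that is made in S phase, stood at 2.86, 3.87 and 4.74 TPM in spleen and at 12.02 and 8.53 TPM in tumor (log2 change 1.23). Its partner Rrm1, the large subunit, which is present through the cycle, stood at 24.8, 21.03 and 21.2 TPM in spleen and at 24.1 and 26.2 TPM in tumor, and the tissues overlapped. Tyms, thymidylate synthase, stood at 35.7, 24.9 and 28.9 TPM in spleen and at 19.7 and 24.2 TPM in tumor, lower in both tumor libraries; the log2 change was -0.42, with an SE of 0.21 and an adjusted p of 0.0859 by limma. A pseudogene, Tyms-ps, is annotated, and reads shared with it could not be told apart here.

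Both origin licensing genes rose on the deposited scale, where 40.9% of all tested genes rose. When the listed totals were made equal, Cdt1 was still called and Cdc6 was not. Cdt1 (chromosome 8, 122568015 to 122573554), the loader whose protein is destroyed once S phase begins, stood at 6.18, 5.04 and 5.84 TPM in spleen and at 23.6 and 26.5 TPM in tumor; the log2 change was 1.96, with an SE of 0.21 and an adjusted p of 1.1e-11 by limma; no other replication gene had a higher change. Cdc6, the ATPase that brings Cdt1 and the ring to the origin, was low throughout, at 2.07, 1.28 and 1.09 TPM in spleen and at 3.65 and 3.22 TPM in tumor (log2 change 0.86). The tissues did not overlap for either gene.

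Of the 6 genes of the helicase ring none rose on the deposited scale, Mcm7 fell and 5 were not called. Among all tested genes 40.9% rose and 18.1% fell on that scale. With equal totals 0 of the 6 rose and 5 fell, where 51.3% of all tested genes fell. With T cell identity genes made equal 6 of the 6 rose and 0 fell, where 94.3% of all rose and 1.01% fell. Mcm7 (chromosome 5, 138164583 to 138172422) stood at 16.95, 19.9 and 19.1 TPM in spleen and at 12.3 and 11.1 TPM in tumor; the log2 change was -0.63, with an SE of 0.21 and an adjusted p of 0.00837 by limma, with both tumor libraries below all 3 spleen libraries. Its call was lost on leaving out spleen replicate 3 (limma adjusted p = 0.0571), tumor replicate 2 (0.0502) or tumor replicate 3 (0.116). Mcm7 exons also overlap those of Ap4m1 and Cops6 on the opposite strand and hold the microRNA genes Mir25 and Mir93. Mcm2 stood at 5.98, 7.43 and 9.16 TPM in spleen and at 7.07 and 5.02 TPM in tumor, its tissues overlapping. Mcm3, Mcm4, Mcm5 and Mcm6 had log2 changes of 0.26, 0.02, 0.43 and 0.23, and of these only Mcm5 did not overlap between tissues. All 6 lay between 5.02 and 21.6 TPM across the 5 libraries.

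Of the genes that turn the ring into a working helicase, Cdc45, Gins1, Gins2 and Mcm10 rose and the cyclin gene Ccne1 fell. This was on the deposited scale, where 40.9% of all tested genes rose and 18.1% fell. With equal totals the rises of Cdc45, Gins1 and Gins2 and the fall of Ccne1 were still called, and Mcm10 was not. Cdc45 (chromosome 16, 18780447 to 18811987), which joins the ring at firing origins, stood at 9.88, 12.9 and 11.7 TPM in spleen and at 43.1 and 44.6 TPM in tumor; the log2 change was 1.85, with an SE of 0.21 and an adjusted p of 7.7e-11 by limma. It was the second most abundant of the 44 genes in both tumor libraries, after Pcna. Its exons overlap those of Ufd1 on the opposite strand. Gins1 and Gins2, subunits of the GINS complex, were lower in level: Gins1 stood at 1.47, 1.78 and 2.35 TPM in spleen and at 7.21 and 5.75 TPM in tumor (log2 change 1.39). Gins2 stood at 1.13, 1.198 and 0.712 TPM in spleen and at 3.602 and 4.21 TPM in tumor (log2 change 1.29). Mcm10, which binds the activated helicase, stood at 0.787, 2.24 and 1.56 TPM in spleen and at 4.16 and 3.77 TPM in tumor (log2 change 1.01). For these 4 genes both tumor libraries lay above all spleen libraries. Ccne1, cyclin E1, which drives entry into S phase with Cdk2, moved the other way, at 5.53, 6.61 and 4.58 TPM in spleen and at 3.07 and 3.47 TPM in tumor; the log2 change was -0.61, with an SE of 0.21 and an adjusted p of 0.0112 by limma. Its call was lost without tumor replicate 2 (limma adjusted p = 0.109).

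Among the synthesis and joining genes, Pcna, Fen1 and Rfc4 rose, and Pola1 and Lig1 were not called. This was on the deposited scale, where 40.9% of all tested genes rose. With equal totals Pcna still rose, Fen1, Rfc4 and Lig1 were not called, and Pola1 fell, where 51.3% of all fell. Pcna (chromosome 2, 132249162 to 132253314), the clamp that holds polymerases on DNA in replication and repair, stood at 48.05, 42.6 and 54.2 TPM in spleen and at 169 and 142 TPM in tumor; the log2 change was 1.67, with an SE of 0.21 and an adjusted p of 1.4e-09 by limma. It was the most abundant of the 44 genes in every library, and 2 pseudogenes, Pcna-ps1 and Pcna-ps2, are annotated. Fen1, the flap endonuclease, stood at 3.29, 3.94 and 3.22 TPM in spleen and at 9.07 and 8.39 TPM in tumor (log2 change 1.12). Rfc4, a subunit of the loader that places Pcna on DNA, stood at 6.15, 4.48 and 5.24 TPM in spleen and at 8.92 and 9.02 TPM in tumor (log2 change 0.67), with Eif4a2 overlapping it on the opposite strand. Both tumor libraries lay above the spleen libraries for each of the 3. Pola1, the catalytic subunit of the priming polymerase, and Lig1, the ligase of the lagging strand, had log2 changes of 0.13 and 0.34, with all values between 4.77 and 7.64 TPM.

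**Figure D2:**
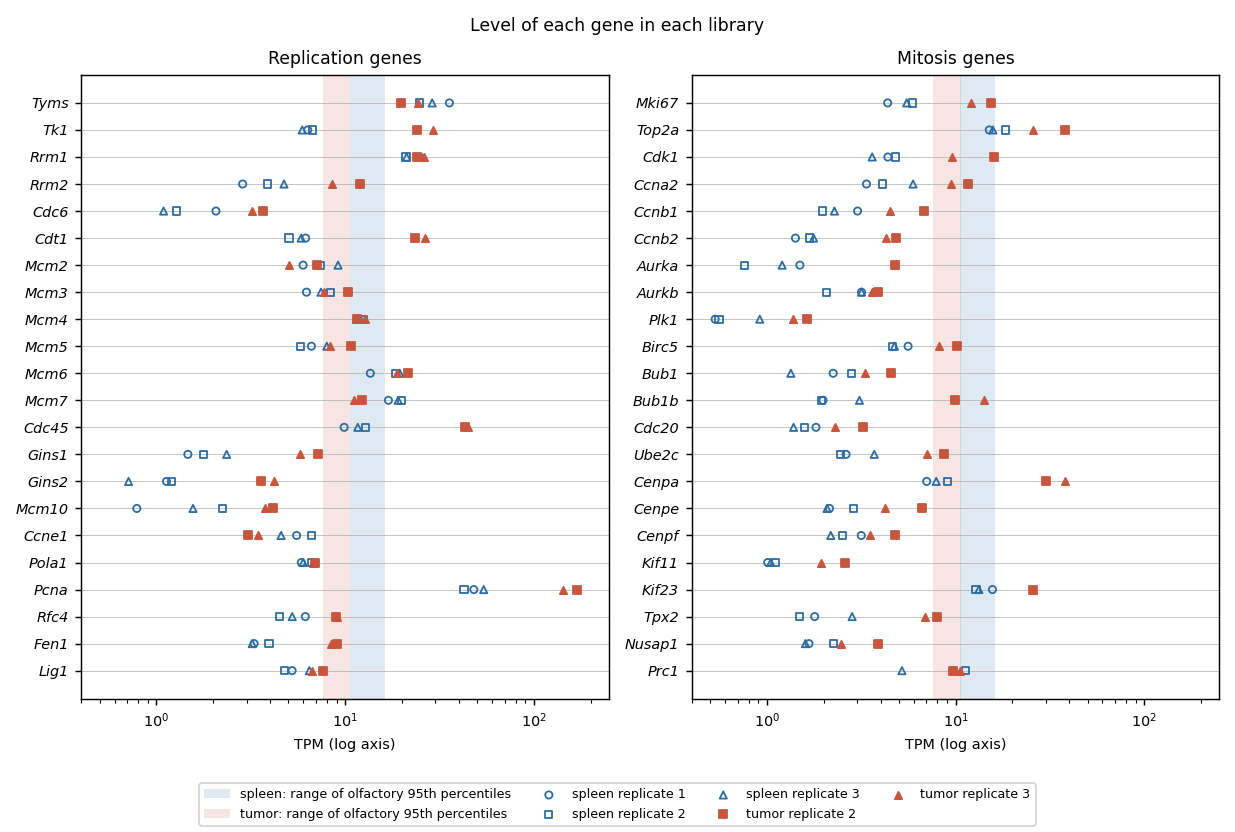
Level of each of the 44 genes in each library, in TPM on a log axis, with spleen libraries as open blue and tumor libraries as filled red symbols. Shaded bands span the 95th percentile of olfactory receptor genes over the libraries of each tissue (10.6 to 16.2 TPM in spleen, 7.59 to 10.7 TPM in tumor). Pcna lies above the bands in every library, and most mitosis genes lie below the blue band in spleen.

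All 6 genes of the proliferation marker and cyclin groups rose on the deposited scale, against 40.9% of all tested genes. Of these 6, Cdk1 alone was still called with equal totals. Mki67 (chromosome 7, 135689784 to 135716361), which encodes the Ki-67 antigen of cycling cells, stood at 4.37, 5.92 and 5.504 TPM in spleen and at 15.5 and 12.03 TPM in tumor; the log2 change was 1.23, with an SE of 0.21 and an adjusted p of 1.6e-06 by limma. Top2a (chromosome 11, 98992943 to 99024189), the topoisomerase that untangles replicated chromosomes, stood at 15.1, 18.5 and 15.8 TPM in spleen and at 37.9 and 25.7 TPM in tumor; the log2 change was 0.89, with an SE of 0.21 and an adjusted p of 0.00034 by limma. The 2 tumor values were the highest for each gene, and the call of Top2a was lost without tumor replicate 2 (limma adjusted p = 0.0851). Cdk1 (chromosome 10, 69335146 to 69352938), the kinase that starts mitosis, stood at 4.38, 4.79 and 3.61 TPM in spleen and at 16.1 and 9.61 TPM in tumor; the log2 change was 1.36, with an SE of 0.22 and an adjusted p of 4.1e-07 by limma. Ccna2, the cyclin of S phase and mitotic entry, stood at 3.37, 4.12 and 5.95 TPM in spleen and at 11.6 and 9.43 TPM in tumor (log2 change 1.09). The B cyclins that bind Cdk1 in mitosis were lower in level, and for all 4 genes the tissues did not overlap. Ccnb1 stood at 3.02, 1.97 and 2.28 TPM in spleen and at 6.83 and 4.49 TPM in tumor (log2 change 0.95). Ccnb2 stood at 1.42, 1.68 and 1.77 TPM in spleen and at 4.81 and 4.301 TPM in tumor (log2 change 1.08). Each B cyclin gene has an annotated pseudogene, Ccnb1-ps and Ccnb2-ps.

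Of the mitotic kinases and their passenger complex, Aurka and Birc5 rose on the deposited scale, where 40.9% of all tested genes rose. With equal totals Aurka was still called and Birc5 was not. Aurka, the Aurora kinase of the spindle poles, stood at 1.495, 0.7597 and 1.204 TPM in spleen and at 4.802 and 4.77 TPM in tumor; the log2 change was 1.44, with an SE of 0.22 and an adjusted p of 1.5e-07 by limma. Its tumor values were more than 3 times the highest spleen value. Aurkb, the Aurora kinase of the chromosomal passenger complex, was not called (log2 change 0.33, SE 0.21), with all values between 2.07 and 3.88 TPM. Birc5, survivin, which belongs to the same complex, stood at 5.600, 4.65 and 4.74 TPM in spleen and at 10.2 and 8.18 TPM in tumor (log2 change 0.76), and its call was lost without tumor replicate 2 (limma adjusted p = 0.0669). Plk1, the Polo kinase, was at 0.532, 0.557 and 0.917 TPM in spleen and 1.62 and 1.37 TPM in tumor and was not tested.

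All 4 genes of the spindle checkpoint and of anaphase promotion rose on the deposited scale, against 40.9% of all tested genes. With equal totals Bub1b was still called, and Ube2c, Bub1 and Cdc20 were not. Bub1b (chromosome 2, 118598211 to 118641591), the checkpoint protein BubR1, stood at 1.98, 1.95 and 3.09 TPM in spleen and at 9.94 and 14.1 TPM in tumor; the log2 change was 1.96, with an SE of 0.22 and an adjusted p of 4.7e-11 by limma. Both tumor libraries held more than 3 times the level of any spleen library. Ube2c, the ubiquitin-conjugating enzyme of the anaphase-promoting complex, stood at 2.63, 2.46 and 3.71 TPM in spleen and at 8.65 and 7.02 TPM in tumor (log2 change 1.18). Bub1, the checkpoint kinase at kinetochores, stood at 2.24, 2.81 and 1.34 TPM in spleen and at 4.56 and 3.31 TPM in tumor (log2 change 0.67). Cdc20, which activates the anaphase-promoting complex, stood at 1.82, 1.58 and 1.38 TPM in spleen and at 3.24 and 2.303 TPM in tumor (log2 change 0.53). The Bub1 and Cdc20 calls were each lost without spleen replicate 3 (limma adjusted p = 0.135 and 0.152) or tumor replicate 2 (0.143 and 0.312). Levels of Bub1 and Cdc20 were below 5 TPM in every library.

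Of the centromere and kinetochore genes, Cenpa was the most abundant and rose by the most. All 3 rose on the deposited scale, against 40.9% of all tested genes. Cenpa alone was still called with equal totals. Cenpa (chromosome 5, 30666777 to 30674830), the histone H3 variant that marks centromeres, stood at 7.03, 9.08 and 7.89 TPM in spleen and at 30.2 and 37.9 TPM in tumor; the log2 change was 1.96, with an SE of 0.21 and an adjusted p of 1.9e-11 by limma. The tumor values were more than 3 times the highest spleen value. Cenpe, the kinetochore motor, stood at 2.15, 2.89 and 2.08 TPM in spleen and at 6.61 and 4.24 TPM in tumor (log2 change 0.91). Cenpf, a kinetochore protein of late cycle, stood at 3.16, 2.51 and 2.18 TPM in spleen and at 4.75 and 3.52 TPM in tumor (log2 change 0.50). The tissues did not overlap for any of the 3. The Cenpf call, at a limma adjusted p of 0.0401, was lost on leaving out spleen replicate 2 (0.0523), spleen replicate 3 (0.199) or tumor replicate 2 (0.353) and after scaling by median ratios (0.0732).

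Spindle and midzone genes rose except Prc1 on the deposited scale, where 40.9% of all tested genes rose. Of this group Tpx2 alone was still called with equal totals. Tpx2, which nucleates spindle microtubules and activates Aurka, stood at 1.79, 1.49 and 2.83 TPM in spleen and at 7.93 and 6.87 TPM in tumor; the log2 change was 1.49, with an SE of 0.22 and an adjusted p of 6.3e-08 by limma. Kif23, a motor of the central spindle, stood at 15.7, 12.8 and 13.3 TPM in spleen and at 25.7 and 25.6 TPM in tumor (log2 change 0.84), among the highest levels of the mitosis genes in both tissues. Kif11, the motor that separates the spindle poles, was much lower, at 1.01, 1.11 and 1.05 TPM in spleen and at 2.59 and 1.93 TPM in tumor (log2 change 0.66). For these 3 genes both tumor libraries were above all spleen libraries. Nusap1, a spindle-associated protein, stood at 1.67, 2.25 and 1.600 TPM in spleen and at 3.88 and 2.47 TPM in tumor (log2 change 0.54). Prc1, which bundles midzone microtubules, was the 1 mitosis gene whose tissues overlapped, at 9.69, 11.3 and 5.197 TPM in spleen and at 9.68 and 10.6 TPM in tumor, and it was not called (log2 change 0.25). Without tumor replicate 2 the calls of Kif11 and Nusap1 were lost (limma adjusted p = 0.121 and 0.403), and that of Nusap1 also without spleen replicate 1 or 3 (0.0738 and 0.139).

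Most of these genes were low. Olfactory receptor genes act in the nose, and the 95th percentile over 1134 of them served as a background level for each library. In spleen replicates 1, 2 and 3 this level was exceeded by 4, 7 and 5 of the 22 replication genes and by 0, 3 and 1 of the 22 mitosis genes. In tumor replicates 2 and 3 it was exceeded by 15 and 9 replication genes and by 11 and 5 mitosis genes. The level itself was 16.2, 10.6 and 13.8 TPM in the spleen libraries and 7.59 and 10.7 TPM in those from tumor. A gene could therefore exceed it in tumor replicate 2 at a lower TPM than in spleen. The share of all genes above this level was not counted. Pcna, Tyms, Rrm1 and Mcm7 were above it in all 5 libraries. Tk1, Cdt1, Mki67, Bub1b and Cenpa were below it in all 3 spleen libraries and above it in both tumor libraries. No mitosis gene was above it in all 3 spleen libraries, Top2a being above it in spleen replicates 2 and 3. The B cyclins, Aurka, Aurkb, Plk1, Bub1, Cdc20, Cenpe, Cenpf, Kif11 and Nusap1, and of the replication genes Cdc6, Mcm2, Gins1, Gins2, Mcm10, Ccne1 and Pola1, were below it in every library. With levels weighted by transcript length, chosen after seeing the data, 12 and 8 replication genes and 12 and 5 mitosis genes exceeded it in the tumor libraries.

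Levels were higher in tumor replicate 2 than in tumor replicate 3 for 19 of the 22 mitosis genes and 13 of the 22 replication genes, against 29.0% of all tested genes. Cdk1, at 16.1 and 9.61 TPM, and Top2a, at 37.9 and 25.7 TPM, show the difference. Bub1b, Cenpa and Prc1 were higher in replicate 3. Without tumor replicate 2, 12 mitosis genes rose, against 36.6% of all tested genes (9.32% fell), and the median log2 change of the mitosis genes was 0.69. Without tumor replicate 3, 19 rose with a median of 1.16, against 33.8% of all tested genes (16.5% fell). The 11 rises among replication genes were counted in each of these fits, with 0 falls without tumor replicate 2. In these fits the spread comes from the spleen libraries alone and is taken to hold for the single tumor library.

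A ratio within a library does not depend on how libraries are scaled. Since the median over the helicase ring genes lay close in the 5 libraries (9.18, 10.4 and 10.3 TPM in spleen and 11.1 and 9.72 TPM in tumor), each gene was divided by the median of Mcm2 to Mcm7 in its own library. This reference was chosen after the values were seen, and no test was made, because 3 libraries against 2 give too few arrangements for a permutation test to pass 0.05. Pcna was 5.24, 4.08 and 5.25 in spleen and 15.3 and 14.6 in tumor. Cdt1 was 0.673, 0.483 and 0.566 in spleen and 2.13 and 2.73 in tumor, and Cdc45 1.08, 1.23 and 1.13 in spleen and 3.89 and 4.58 in tumor. Cdt1 thus stood below the ring median in every spleen library and above it in both tumor libraries. Tk1, Mki67 and Cenpa crossed in the same way. Bub1b was 0.216, 0.187 and 0.2998 in spleen and 0.896 and 1.45 in tumor. Mcm7, part of the ring, was 1.85, 1.91 and 1.85 in spleen and 1.11 and 1.14 in tumor, and Ccne1 0.603, 0.633 and 0.443 in spleen and 0.277 and 0.357 in tumor. The ratio was higher in both tumor libraries than in any spleen library for 21 of the 22 mitosis genes and 14 of the 22 replication genes, against 44% of all tested genes, and lower for 0 and 3, against 23%. The member counts equal those of TPM itself, the reference being nearly level across the libraries, so they add no separate evidence, and 6 of the 22 replication genes are the reference.

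**Figure D3:**
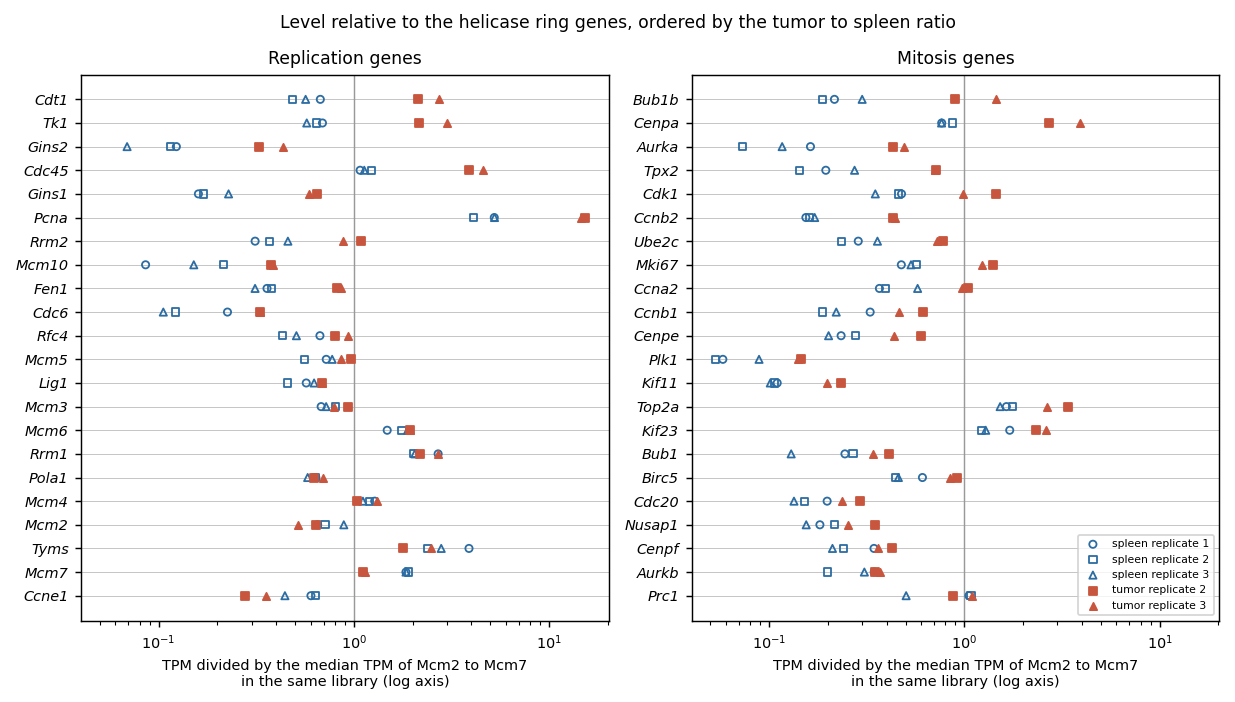
TPM of each gene divided by the median TPM of Mcm2 to Mcm7 in the same library, on a log axis, ordered by the ratio of tumor to spleen means. Open blue symbols are the 3 spleen and filled red symbols the 2 tumor libraries. Pcna moved from between 4.08 and 5.25 in spleen to 14.6 and 15.3 in tumor, and Mcm7 from between 1.85 and 1.91 to 1.11 and 1.14.

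How many of the genes rose depended on the scale that links the tissues. When the listed totals were made equal, 6 replication and 5 mitosis genes rose and 9 and 0 fell, against 21% of all genes rising and 51.3% falling. On the upper quartile 7 and 7 rose and 9 and 0 fell, against 23.7% and 49%. By median ratios 11 and 18 rose and 2 and 0 fell, against 37.3% and 21%. When T cell identity genes were made equal all 22 and all 21 rose, as did 94.3% of all genes, and with the olfactory 95th percentile made equal, a scaling chosen after seeing the data, 13 and 20 rose and none fell, against 45.8% and 4.02%. The median of the mitosis genes was above that of all genes under each of these scalings, by 0.68 for the deposited TPM, 0.73 with equal totals, 0.73 on the upper quartile, 0.69 by median ratios, 0.61 on T cell identity genes and 0.70 on the olfactory level. For the replication genes the same distance was 0.32, 0.27, 0.28, 0.32, 0.28 and 0.35. Each scaling multiplies all genes of a library by the same factor, so it moves both medians together. These distances were thus nearly fixed beforehand and are not separate checks. Outside scaling, the distance was -0.16 for replication and 0.60 for mitosis with the filter raised to a mean of 5 TPM. With a pseudocount of 10 it was 0.12 and 0.26, and without tumor replicate 2 it was 0.18 and 0.40. The genes that rose under all 6 scalings were Tk1, Cdt1, Cdc45, Gins1, Gins2 and Pcna of replication and Cdk1, Aurka, Bub1b, Cenpa and Tpx2 of mitosis. These 11 are 25.6% of the 43 tested, and 21% of all tested genes did the same. They are the genes that rose with equal totals, and the other scalings took none away. The 6 scalings were therefore not separate hurdles. With T cell identity genes made equal the 2 falls turned to rises, of 1.34 (Mcm7) and 1.10 (Ccne1). With equal totals the log2 changes of the 11 ran from 0.54 (Cdk1, limma adjusted p = 0.0496) to 1.18 (Bub1b, limma adjusted p = 0.00389). Mki67 stood at 0.40 there (limma adjusted p = 0.0508).

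**Figure D4:**
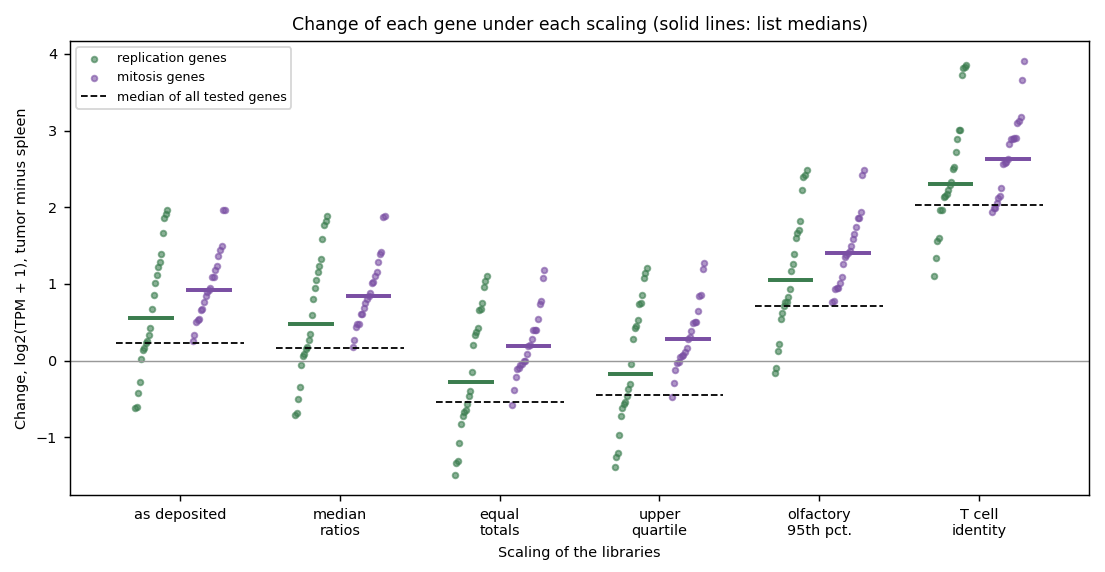
Log2 change of each tested replication (green) and mitosis (purple) gene, tumor minus spleen, under 6 scalings of the 5 libraries, with solid lines at the list medians and dashed lines at the median of all tested genes. The dashed line moves from -0.54 with equal totals to 2.03 with T cell identity genes made equal, and the genes move with it.

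Other genes of both pathways were followed in the same fit. Of 59 tested other replication genes 23 rose and 4 fell (median log2 change 0.21), and of 84 tested other mitosis genes 37 rose and 10 fell (median 0.32), against 40.9% and 18.1% of all genes. By the naming rule the rises among other replication genes included those of Dck, deoxycytidine kinase, and Slbp, the histone mRNA stem-loop binding protein. Dck stood at 9.19, 9.82 and 8.43 TPM in spleen and at 82.04 and 95.2 TPM in tumor. Rpa1, the large subunit of the single-strand binding complex, fell, at 27.2, 38.6 and 28.5 TPM in spleen and at 14.8 and 15.7 TPM in tumor, as did Orc5, an origin recognition subunit, and the thymidylate kinase gene Dtymk. Among other mitosis genes Cks2, a Cdk1-binding subunit, stood at 3.67, 7.21 and 5.89 TPM in spleen and at 39.9 and 48.5 TPM in tumor, and Ccnf, cyclin F, at 0.746, 0.636 and 0.879 TPM in spleen and at 11.4 and 9.31 TPM in tumor. Ncapg2, a condensin subunit, rose from 12.1 to 54.03 TPM. Smc4, the condensin ATPase, fell, at 283, 348 and 308 TPM in spleen and at 94.1 and 99.05 TPM in tumor. Numa1, of the spindle poles, and the condensin subunit gene Ncapd3 fell as well. Of the 14 tested genes of the checkpoint and anaphase group 7 rose and 1 fell, and of the 8 condensin genes 3 rose and 2 fell.

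Of 19 genes that control cell cycle transcription, the E2F, RB, DREAM and MuvB-Myb genes, 8 rose and 2 fell (median log2 change 0.38), against 40.9% and 18.1% of all tested genes. Lin54, the DNA-binding subunit that reads the homology region, stood at 5.12, 6.11 and 5.695 TPM in spleen and at 37.4 and 42.4 TPM in tumor, a log2 change of 2.62. E2f4, a repressor E2F of resting cells, went from 11.2 ± 2.10 TPM (SD, n = 3) to 19.7 ± 1.28 TPM (SD, n = 2) and Rb1 from 24.1 ± 5.995 to 38.7 ± 3.57 TPM. Rbl2, the pocket protein p130 of resting cells, fell from 29.9 ± 8.96 to 14.1 ± 0.24 TPM. With equal totals 1 of the 19 rose and 9 fell, against 21% and 51.3%.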

How the data were processed

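Stranded, ribosomal RNA-depleted total RNA libraries were read as pairs of 75 bp, per the labels' protocols. The deposited tables give 1 TPM value per gene symbol and library. That unit was inferred from the values, which are not whole and sum to less than the full TPM total, and from kallisto, which is named beside DESeq2 and mm10 in the submitters' processing notes without versions or roles. Depth is unknown from TPM, so no counting interval is given.

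TPM of the 5 libraries were taken as log2(TPM + 1). The 12979 genes whose mean reached 1 TPM were tested two-sidedly with limma 3.58.1 (R 4.3.3). The model held tissue alone and a trend of variance on level, and p-values were adjusted by Benjamini-Hochberg over all genes in the fit. Residual and prior degrees of freedom were 3 and 44.1, so the variance used for each gene came mostly from the trend over all genes. A fold on this scale understates the change of low genes. The test was tried on simulated data. The members and lists were chosen with earlier results of these data known, and no list was tested as a whole. All 44 members were accounted for, with values per library for every called member and for Mki67, Top2a, Cdk1, Ccnb1, Pcna, Mcm2, Rrm2 and Tyms; Rrm1, Plk1 and Prc1 were given so as well after their values were seen, and the others by change or range. Named in each other list were the 3 largest called rises and falls whose mean exceeded the mean olfactory level in at least 1 tissue; 1 gene so chosen is not reported here. Positions and overlaps are from GENCODE vM21 (GRCm38). Besides the overlaps named above, exons of Tk1, Gins2, Fen1, Lig1, Ccna2, Plk1, Cdc20, Ube2c, Nusap1 and Prc1 overlap those of genes on the opposite strand. Top2a exons overlap Gm23451 on the same strand. Alternatives covered scaling, filter, pseudocount, threshold, trend, replicate block and each library left out.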

Additional observations from a re-analysis of the deposited data

How the results depend on the processing

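Scaling moved the most values. With equal totals, 2724 of all genes rose and 6662 fell; rises and falls numbered 6 and 9 for replication (median -0.27), 5 and 0 for mitosis (median 0.19), and 9 and 33 other replication, 6 and 36 other mitosis, 1 and 9 transcription control and 11 and 8 p53 target genes. On the upper quartile, 3078 of all genes rose and 6366 fell; rises and falls numbered 7 and 9 for replication (median -0.17), 7 and 0 for mitosis (median 0.28), and 11 and 31 other replication, 9 and 32 other mitosis, 4 and 9 transcription control and 11 and 8 p53 target genes. With T cell identity genes made equal, 12242 of all genes rose and 131 fell; rises and falls numbered 22 and 0 for replication (median 2.31), 21 and 0 for mitosis (median 2.63), and 59 and 0 other replication, 83 and 0 other mitosis, 19 and 0 transcription control and 20 and 0 p53 target genes. With the olfactory level made equal, 5943 of all genes rose and 522 fell; rises and falls numbered 13 and 0 for replication (median 1.05), 20 and 0 for mitosis (median 1.41), and 24 and 0 other replication, 43 and 1 other mitosis, 11 and 0 transcription control and 12 and 1 p53 target genes. Log2 changes that turned sign against the deposited scale were, with equal totals, Rrm1 -0.73, Mcm3 -0.57, Mcm4 -0.83, Mcm5 -0.40, Mcm6 -0.65, Pola1 -0.67, Rfc4 -0.14, Lig1 -0.47, Top2a -0.0022, Aurkb -0.39, Birc5 -0.052, Bub1 -0.0098, Cdc20 -0.10, Cenpf -0.21, Kif23 -0.048, Nusap1 -0.11 and Prc1 -0.58; on the upper quartile, Rrm1 -0.62, Mcm3 -0.47, Mcm4 -0.73, Mcm5 -0.30, Mcm6 -0.54, Pola1 -0.57, Rfc4 -0.044, Lig1 -0.37, Aurkb -0.30, Cdc20 -0.021, Cenpf -0.12, Nusap1 -0.027 and Prc1 -0.48; with T cell identity genes made equal, Tyms 1.59, Mcm2 1.56, Mcm7 1.34 and Ccne1 1.10; with the olfactory level made equal, Tyms 0.13 and Mcm2 0.22. By median ratios Mcm4 turned to -0.057, without tumor replicate 3 Mcm4 to -0.045 and without spleen replicate 3 Prc1 to -0.042. Over the fits that each left out 1 library Mcm4 ranged to 0.095 and Prc1 to 0.45. The cause was not tested.

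With a filter of 5 TPM fewer genes were tested: 4387 of all 8535 genes rose and 1456 fell, 7 of 17 replication genes rose and 1 fell (median 0.34), 8 of 9 mitosis genes rose (median 1.09), and 16 other mitosis and 4 transcription control genes rose. Medians were 0.22 and 0.36 with a pseudocount of 10 and 1.14 for mitosis with 0.1. At an adjusted p below 0.01, 1552 of all genes, 1 replication gene and 1 transcription control gene fell, and with no filter 1 of the last fell. With Ccne1 counted among mitosis genes, 1 replication gene (median 0.67) and 1 mitosis gene fell. Leaving out 1 library gave 4390 to 5842 rises for all genes, 1209 to 2623 falls for all genes, 11 rises for replication each time, 0 to 3 falls for replication, 12 to 19 rises for mitosis, 0 falls for mitosis each time, 7 to 9 rises for transcription control, 1 to 2 falls for transcription control, and medians of 0.46 to 0.63 for replication and 0.69 to 1.16 for mitosis. Replicate numbers 2 and 3 occur in both tissues. The labels do not say that they mark the same mouse, so the numbers were not taken to pair libraries. Deviations of same-numbered libraries had r = 0.20 and 0.066 across genes, and those of spleen replicate 1 and tumor replicate 3 had r = 0.19. With 2 tumor libraries the deviations of 1 mirror those of the other, so these values cannot show or exclude pairing. With the number as a replicate block 4877 of all genes rose and 2013 fell, with 11 and 2 for replication and 19 and 0 for mitosis, and no member changed its call. Members above the olfactory level in every library of a tissue numbered 4 (replication, spleen), 9 (replication, tumor), 0 (mitosis, spleen) and 5 (mitosis, tumor); at the 90th percentile 7, 18, 2, 11 and at the 99th 1, 5, 0, 1, in that order. Weighted by transcript length, 1 mitosis gene exceeded it in every spleen library. The depth behind each TPM is unknown.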

Other observations

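Pcna also belongs to a list of 20 genes taken as p53 targets with roles in arrest, replication or repair. Whether each of them depends on p53 in these cells was not tested. Of the 20, 12 rose, 5 fell and 3 were not called, where 40.9% of all tested genes rose and 18.1% fell. Their median log2 change was 1.33, against 0.23 over all tested genes. When totals were made equal, 11 of the 20 rose and 8 fell, against 21% and 51.3%. Cdkn1a, the p21 inhibitor of cyclin-dependent kinases that also binds Pcna, stood at 0.698, 0.354 and 0.751 TPM in spleen and at 111 and 123 TPM in tumor, a log2 change of 6.21. Plk2, a Polo-like kinase, stood at 1.31, 0.344 and 1.12 TPM in spleen and at 135 and 95.6 TPM in tumor, and Gadd45b at 2.55, 3.18 and 3.97 TPM in spleen and at 164 and 152 TPM in tumor. In the same libraries Trp53inp1 fell, at 70.5, 78.7 and 84.9 TPM in spleen and at 29.02 and 23.5 TPM in tumor. Sesn1 and Ddb2 fell by 1.46 and 1.24 on the log2 scale. The macrophage and monocyte markers summed to 7333 to 7697 TPM in the same tumor libraries and to 32.4 to 44.5 TPM in spleen, and their part in these values was not tested.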
